A study of Homo sapiens with 2 samples.

Results

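The genes described here encode the subunits of heterotrimeric G proteins and the regulators of G protein signalling (RGS proteins). They are the genes in the deposited tables whose name is that of an alpha subunit (GNA), a beta subunit (GNB1 to GNB5), a gamma subunit (GNG) or a numbered RGS gene, 56 of 20263 genes listed. They comprise 16 alpha, 5 beta, 12 gamma and 21 RGS genes, and 2 genes that the name rule also takes in, RGS7BP and RGS9BP, which encode partners of RGS proteins and not RGS proteins. The group was chosen by gene name, but with the differences in read count between these libraries already known, GNA12 among the largest of them. Its values are therefore given as a description, with no test.

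The transcriptome was sequenced in Cal-27, an established line of squamous carcinoma cells from the tongue. In one of 2 cultures an shRNA directed at HIPK2, which encodes a nuclear protein kinase, was stably expressed from the vector GV-248, and the other culture carried a scrambled shRNA as its control. Both were grown in serum-containing medium with no further treatment. The sources used here do not say whether each culture was a single clone or a pool. With 1 library in each group, the differences below have no replicate check and compare these libraries, not the conditions. Brackets hold 95% counting intervals.

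A heterotrimeric G protein passes a signal from a receptor with 7 membrane passes to enzymes and channels inside the cell. The activated receptor makes the alpha subunit exchange GDP for GTP, the alpha subunit and the beta-gamma dimer part and act on effectors, and RGS proteins speed up the hydrolysis of GTP that ends the signal. Alpha subunits fall into classes by effector: Gs raises cyclic AMP, Gi/o lowers it, Gq activates phospholipase C beta, and G12/13 activates exchange factors of the small GTPase RhoA. In squamous epithelium these pathways carry signals of lysophospholipids, prostaglandins and proteases.

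The libraries held 26450251 counts in the one labelled HIPK2 shRNA and 28064923 in the control, of which the 56 genes took 0.239% and 0.214%. The targeted gene HIPK2 had 218 counts in the library labelled HIPK2 shRNA and 110 in the control, a ratio of scaled counts of 2.01 (1.59 to 2.55). Its deposited TPM was 0.873 in the library labelled HIPK2 shRNA and 1.63 in the control, a ratio of 0.537. Counts and TPM of the target thus went opposite ways, so the sample is named throughout by its label only. Of 7 squamous keratinocyte markers all were expressed in at least 1 library, and they summed to 3024 CPM in the library labelled HIPK2 shRNA and 3416 CPM in the control. KRT5 made up most of that sum, at 2554 CPM in the library labelled HIPK2 shRNA and 2766 CPM in the control. Of the 7, 2 were past 2-fold lower. KRT14 had 44 counts in the library labelled HIPK2 shRNA and 318 in the control, and CDH1 had 2361 and 5049, with a log2 ratio of -1.07 in CPM and -0.80 in TPM. Of the markers of other cell types, 2 of 5 leukocyte genes (CD68 and CD14), 2 of 4 endothelial genes (CDH5 and VWF) and 3 of 5 fibroblast genes (COL1A1, COL1A2 and PDGFRB) were expressed. Their summed levels were 23.9 and 28.1 CPM, 28.6 and 56.2 CPM, and 21.4 and 18.2 CPM in the library labelled HIPK2 shRNA and the control. Of the markers that were not expressed, PTPRC, CD3E, PECAM1 and DCN were at 0 in both libraries. The part of these levels in the results below was not tested.

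Levels are given as CPM, counts scaled to library size and composition, when the libraries are compared, and as the authors' deposited TPM, which divides by transcript length, when genes are compared. Genes that reached 1 CPM in either library counted as expressed. Of the 56 genes, 31 were expressed, 9 had some counts below that level and 16 had 0 counts in both libraries. To form the log2 ratio, 1 was added to the CPM of both libraries and the value of the library labelled HIPK2 shRNA was divided by that of the control. Ratios of low genes are thereby understated. Past 2-fold means a log2 ratio of at least 1, or of -1 or less, which sets a size and tests nothing.

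Among the 31 expressed genes, 3 were at least 2-fold higher in the library labelled HIPK2 shRNA, the alpha subunit genes GNA12, GNAO1 and GNAZ, and 1 was lower by as much, the gamma subunit gene GNG11. Over all 11813 expressed genes the share at least 2-fold higher was 3.26% and the share at least 2-fold lower 2.87%. The median log2 ratio of the 31 genes was -0.07, and that of all expressed genes 0.0002. Of the 31 genes, 15 had a log2 ratio above 0 and 16 below 0, and 23 differed by less than 1.5-fold. The counting interval of the CPM ratio lay above 1 for 8 genes and below 1 for 11, and included 1 for 11. The same shares over all expressed genes are not given here, so these numbers show nothing particular to the group. GNAZ had no count in the control, so its interval has a lower end alone. Nearest to the limit stood GNG11 at a log2 ratio of -1.36 and GNAO1 at 1.98 inside it, and RGS3 at 0.82, GNB5 at -0.80 and GNAI2 at 0.72 outside it.

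**Figure D1:**
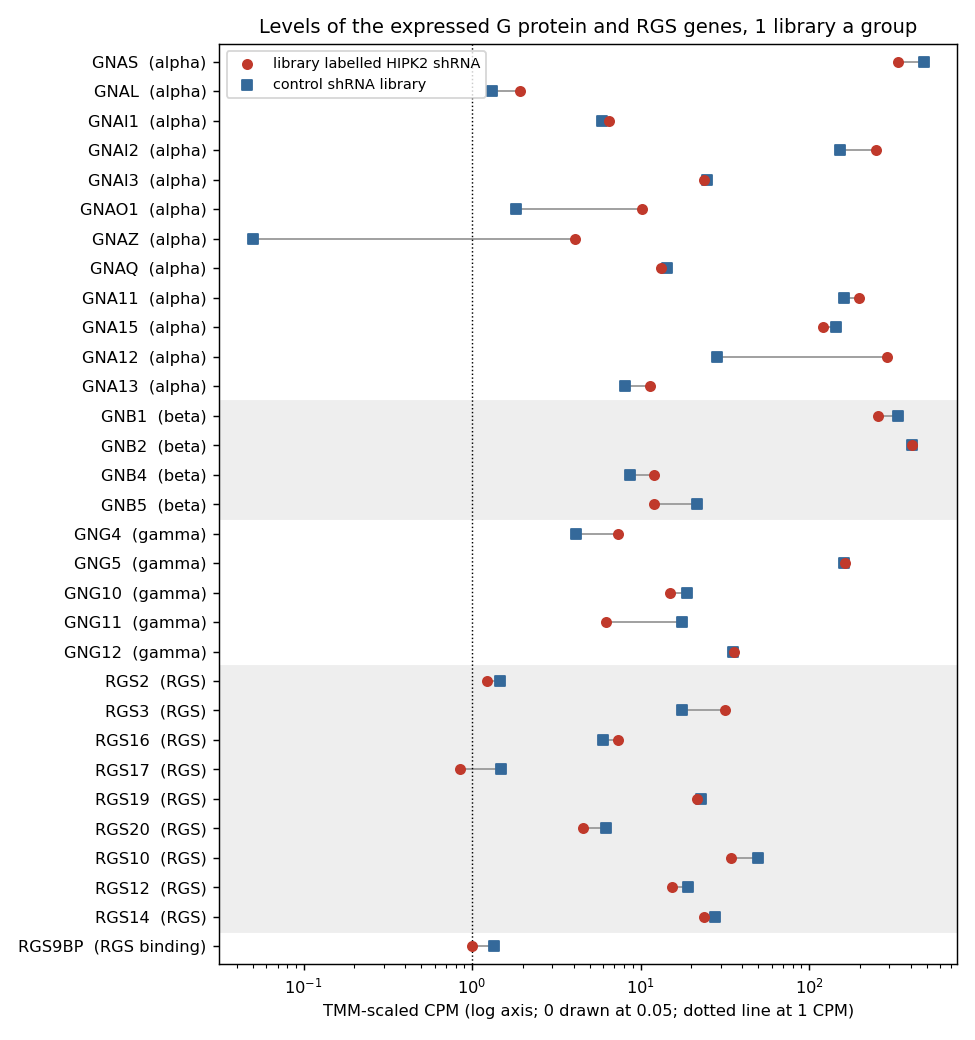
TMM-scaled CPM of the 31 expressed genes on a log axis, circles for the library labelled HIPK2 shRNA and squares for the control shRNA library, with the family in brackets. GNA12 lies at 290.1 CPM against 28.5 CPM, GNAZ has no count in the control, and GNB2, GNG5 and GNG12 nearly coincide.

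The stretches upstream of the RefSeq start are shown for the genes past 2-fold as sequence alone, since no measurement was made on them. Of the 4 genes, 3 matched the RefSeq promoter table (GRCh38.p14), and GNAZ is named only. Each is the 250 bases before the start, 5′ to 3′ on the gene's strand, with capitals marking any match on either strand to a GC box (GGGCGG), to a TATA box (TATAAA), to the core of a cyclic AMP response element (TGACG) or to an AP-1 site (TGANTCA). The GNA12 stretch is chr7:2844309-2844558 on the minus strand and belongs to the outermost of 2 starts in the table. The GNAO1 stretch is chr16:56191239-56191488 and the GNG11 stretch chr7:93921485-93921734, both on the plus strand. The RefSeq starts lie downstream of the GENCODE 29 gene starts given below, so the last 16 bases printed for GNA12, 142 for GNAO1 and 36 for GNG11 lie inside the gene as GENCODE 29 draws it.
GNA12: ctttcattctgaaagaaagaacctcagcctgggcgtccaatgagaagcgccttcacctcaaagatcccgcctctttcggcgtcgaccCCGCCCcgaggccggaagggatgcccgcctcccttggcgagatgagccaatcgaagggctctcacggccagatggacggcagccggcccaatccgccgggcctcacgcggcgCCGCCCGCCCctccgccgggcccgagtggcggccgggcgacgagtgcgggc
GNAO1: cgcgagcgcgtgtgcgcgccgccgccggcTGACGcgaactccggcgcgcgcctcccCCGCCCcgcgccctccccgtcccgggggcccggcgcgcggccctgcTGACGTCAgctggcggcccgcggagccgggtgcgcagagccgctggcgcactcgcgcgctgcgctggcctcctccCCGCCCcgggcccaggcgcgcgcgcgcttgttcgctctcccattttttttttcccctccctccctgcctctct
GNG11: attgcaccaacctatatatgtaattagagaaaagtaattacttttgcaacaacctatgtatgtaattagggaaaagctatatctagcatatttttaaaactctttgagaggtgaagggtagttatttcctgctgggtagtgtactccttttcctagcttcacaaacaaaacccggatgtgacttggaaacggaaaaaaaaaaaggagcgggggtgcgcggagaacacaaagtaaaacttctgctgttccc

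The 3 stretches differ in base composition. GNA12 and GNAO1 held 30 and 44 CpG dinucleotides and GNG11 held 5, against a median of 11 over the 35116 stretches of the same length in the table. G and C made up 69.6% of the GNA12 stretch, 79.2% of that of GNAO1 and 38.4% of that of GNG11. GNA12 had 3 GC box matches, 2 of which overlap, and GNAO1 had 2, while 42.6% of all stretches hold at least 1. GNAO1 had 3 matches to the cyclic AMP response element core, 2 of them the opposite strands of the palindrome TGACGTCA, and 21.2% of all stretches hold at least 1 match. GNG11 matched none of the 4 motifs, and none of the 3 genes matched the TATA box or the AP-1 site, which occur in 10.7% and 6.57% of stretches. A match is a run of letters and not a measured binding site.

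GNA12 had the highest log2 ratio among the alpha subunit genes with 1 CPM added, but with 0.1 CPM added GNAZ stood higher, at 5.38 against 3.34. GNA12 encodes the alpha subunit of G12, which activates RhoGEFs (ENSG00000146535, chromosome 7, 2728112 to 2844324, minus strand, GRCh38). GNA12 had 7850 counts in the library labelled HIPK2 shRNA and 783 counts in the control. Its level was 290.1 CPM in the library labelled HIPK2 shRNA and 28.5 CPM in the control, a ratio of 10.2 (9.44 to 11.0), and its log2 ratio of 3.30 was the 9th highest of all 11813 expressed genes. Its deposited TPM was 99.3 in the library labelled HIPK2 shRNA and 9.34 in the control, a ratio of 10.6. Count and TPM gave nearly the same ratio because the transcript length that they imply for GNA12 differed by a factor of 1.02 between the libraries. No exon of GNA12 overlaps another annotated gene in GENCODE 29.

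Its relative GNA13, which also signals to RhoA, differed far less. GNA13 (chromosome 17) had 307 counts in the library labelled HIPK2 shRNA and 223 in the control, 11.3 and 8.13 CPM, a ratio of 1.40 (1.17 to 1.67). In deposited TPM, GNA12 stood above GNA13 in both libraries, at 99.3 against 3.45 in the one labelled HIPK2 shRNA and 9.34 against 2.30 in the control. The summed TPM of both genes was 103 in the library labelled HIPK2 shRNA and 11.6 in the control.

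The genes around GNA12 did not share its difference, except SDK1. Of 14 listed genes within 500 kb, 11 were expressed, with a median log2 ratio of -0.02. SDK1, which encodes a neuronal adhesion protein and lies on the opposite side of GNA12 from the other 10, had 313 counts in the library labelled HIPK2 shRNA and 54 in the control, a log2 ratio of 2.08. The other 10 expressed neighbours lay between -0.31 (TTYH3) and 0.90 (CHST12). GNAO1, GNAZ and GNG11 had 10, 3 and 2 expressed neighbours, and none of these was past 2-fold either way.

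**Figure D2:**
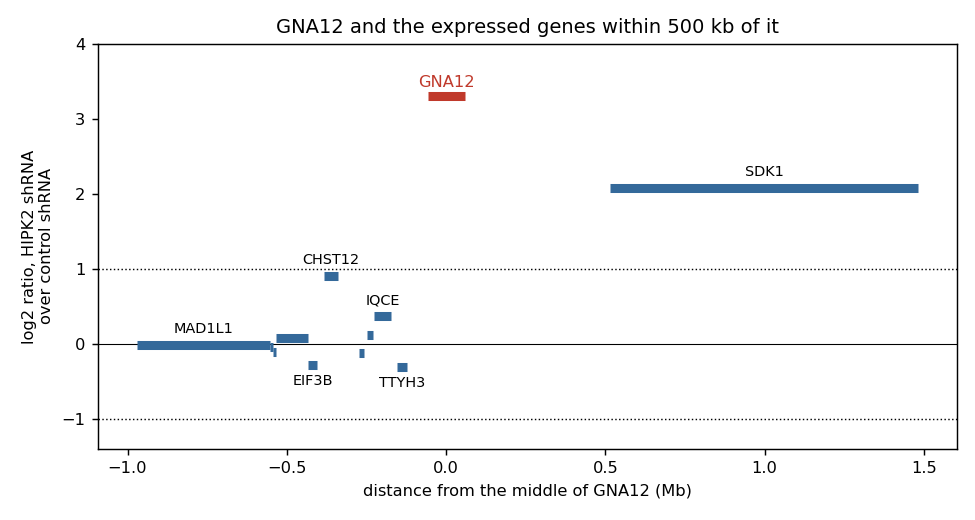
Log2 ratio of GNA12 and of the 11 expressed genes within 500 kb of it, by distance from the middle of GNA12 in Mb, each bar spanning its gene, with dotted lines at 2-fold. GNA12 stands at 3.30, SDK1 at 2.08 and the other genes between the dotted lines.

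In the Gi/o class, 5 of 8 genes were expressed and 2 of these were past 2-fold higher. GNAO1 encodes the alpha subunit of Go, best known from neurons (chromosome 16, 56191347 to 56357457, plus strand). It had 275 counts in the library labelled HIPK2 shRNA and 50 in the control, 10.2 and 1.82 CPM, a ratio of 5.58 (4.11 to 7.70). In deposited TPM GNAO1 was at 3.49 in the library labelled HIPK2 shRNA and 0.873 in the control, a ratio of 3.998, because its implied transcript length was 1.49 times as long in the library labelled HIPK2 shRNA. GNAZ encodes the alpha subunit of Gz, known from neurons and platelets (chromosome 22, 23070361 to 23125037, plus strand). It had 110 counts in the library labelled HIPK2 shRNA, 4.07 CPM, and none in the control, where a count of 0 leaves room for 3 counts or 0.109 CPM. At that limit its level was at least 37.2-fold higher in the library labelled HIPK2 shRNA, which leaves aside the counting error of its 110 counts, and the lower end of its exact counting interval was 29.7-fold. Its deposited TPM was 1.82 there and is listed at 0 in the control. An exon of GNAZ overlaps RSPH14 on the opposite strand, and RSPH14 had 0 counts in both libraries.

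The widely expressed Gi genes showed smaller differences. GNAI2 had 6801 counts in the library labelled HIPK2 shRNA and 4178 in the control, 251 and 152 CPM, a ratio of 1.65 (1.59 to 1.72) and of 1.78 in TPM. GNAI2 is the main Gi subunit here by deposited TPM, at 166 in the library labelled HIPK2 shRNA and 93.2 in the control. The units disagreed on GNAI1, which had 175 counts in the library labelled HIPK2 shRNA and 163 in the control. Its CPM ratio was 1.09 (0.874 to 1.36), while its TPM was 5.73 in the library labelled HIPK2 shRNA and 2.47 in the control, a ratio of 2.32. Its implied transcript length in the library labelled HIPK2 shRNA was 0.502 of that in the control. For the middle 95% of 11760 expressed genes that length ratio ran between 0.666 and 1.49. GNAI3 differed little in either unit, with 641 counts in the library labelled HIPK2 shRNA and 684 in the control, a CPM ratio of 0.950 (0.852 to 1.06).

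The TPM of GNAI3 cannot be set beside that of its relatives without its length. GENCODE 29 gives GNAI3 a single coding transcript of 27174 bases, and 5 expressed genes, GNAI3 included, have one at least that long. The count and FPKM of GNAI3 imply 32572 bases in the control, where genes with 1 annotated coding transcript had a median implied length of 119.7% of the annotated one. Its deposited TPM, 1.30 in the library labelled HIPK2 shRNA and 1.28 in the control, rests on that length. Exons of this transcript also overlap AMPD2 on the same strand, which had 2436 counts in the library labelled HIPK2 shRNA and 1916 in the control. The photoreceptor and taste subunit genes GNAT1, GNAT2 and GNAT3 had at most 2 counts.

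GNAS, the gene of Gs alpha and the most abundant alpha subunit gene by TPM, was lower in the library labelled HIPK2 shRNA. It had 9182 counts there and 13178 in the control, 339 and 480.4 CPM, a 1.42-fold lower level (1.38 to 1.45). In deposited TPM it was at 251 in the library labelled HIPK2 shRNA and 340.1 in the control, 1.35-fold lower. GNAS is an imprinted locus with several promoters, and the tables give all its transcripts as a single gene. GNAL, the olfactory relative of GNAS, had 52 counts in the library labelled HIPK2 shRNA and 36 in the control, a ratio of 1.46 (0.939 to 2.31) that includes 1. Exons of GNAL overlap MPPE1 on the opposite strand, with 457 counts in the library labelled HIPK2 shRNA and 576 in the control.

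The Gq class differed by less than 1.5-fold in each of its 3 expressed genes. GNA11, a ubiquitous activator of phospholipase C beta, was at 198 CPM in the library labelled HIPK2 shRNA and 160.4 CPM in the control, a ratio of 1.23 (1.19 to 1.29). GNA15, a subunit that couples to many receptors and is known from blood cells and epithelia, was at 121 CPM in the library labelled HIPK2 shRNA and 144 CPM in the control, a ratio of 0.838 (0.800 to 0.878). GNAQ was at 13.2 CPM in the library labelled HIPK2 shRNA and 14.3 CPM in the control, a ratio of 0.928 (0.802 to 1.07). GNA14 had 0 counts in both libraries. GNA11 and GNA15 lie 12.2 kb apart on chromosome 19, and their counting intervals fell on opposite sides of 1.

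**Figure D3:**
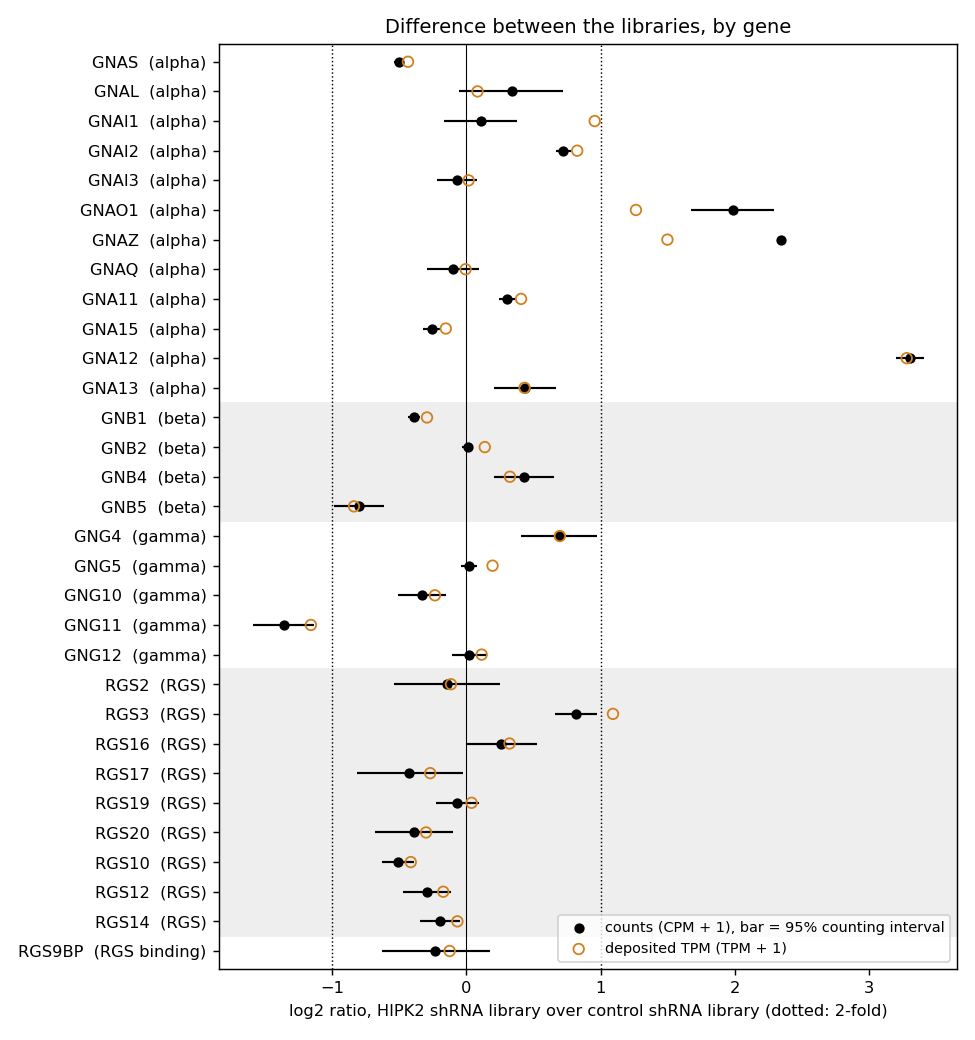
Log2 ratio of the 31 expressed genes, library labelled HIPK2 shRNA over control, from counts with 95% counting intervals (filled, none drawn for GNAZ) and from the deposited TPM (open), with dotted lines at 2-fold. GNA12 at 3.30, GNAZ at 2.34 and GNAO1 at 1.98 lie past the right line and GNG11 at -1.36 past the left, and the units part most for GNAI1, GNAO1 and GNAZ. GNAZ is at 0 in the control in both units, so its gap reflects adding 1 to 4.07 CPM and to 1.82 TPM.

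By deposited TPM the makeup of the alpha subunits differed between the libraries mainly in GNA12, GNAS and GNAI2. GNA12 took 14.3% of the summed TPM of the 16 alpha subunit genes in the library labelled HIPK2 shRNA and 1.55% in the control. In the library labelled HIPK2 shRNA GNAS took 36.2%, GNAI2 23.9%, GNA15 12.2% and GNA11 10.5%. In the control GNAS took 56.4%, GNAI2 15.5%, GNA15 15.7% and GNA11 9.07%. GNA12 was thus the 3rd most abundant alpha subunit gene in the library labelled HIPK2 shRNA and the 5th in the control. In CPM the alpha subunit genes summed to 1270 in the library labelled HIPK2 shRNA and 1022 in the control. Without GNA12 those sums were 980 and 994. The summed alpha TPM was 694 in the library labelled HIPK2 shRNA and 602 in the control, and without GNA12 it was 594 and 593. With counts divided by the longest annotated coding transcript instead, a choice made after seeing the data, GNAI2 (27.9%) and not GNAS (23.0%) came first in the library labelled HIPK2 shRNA, and GNAS (39.8%) stayed first in the control.

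Beta subunits form a fixed dimer with a gamma subunit and act on effectors of their own. Of 5 genes, 4 were expressed and none was past 2-fold. GNB2 had 11073 counts in the library labelled HIPK2 shRNA and 11165 in the control, 409 and 407 CPM, a ratio of 1.01 (0.979 to 1.03), and 384 and 349 in TPM. GNB1 had 6944 counts in the library labelled HIPK2 shRNA and 9227 in the control, a ratio of 0.763 (0.739 to 0.787). GNB4 had 326 counts in the library labelled HIPK2 shRNA and 238 in the control, a ratio of 1.39 (1.17 to 1.65).

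GNB5 is the outlying beta subunit, known to pair with RGS proteins of the R7 class in place of a gamma subunit. It had 326 counts in the library labelled HIPK2 shRNA and 596 in the control, 12.05 and 21.7 CPM, which is 1.80-fold lower (1.57 to 2.07). Of the 4 R7 genes, RGS6, RGS7, RGS9 and RGS11, none was expressed, and the highest count was 10, for RGS7. GNB3 had 16 counts in the library labelled HIPK2 shRNA and 7 in the control, and it shares exons with CDCA3 on the opposite strand, which had 2727 and 2256. The summed beta TPM was 519.9 in the library labelled HIPK2 shRNA and 520.2 in the control, of which GNB2 took 73.8% and 67.1%. In CPM the beta sum was 690.5 in the library labelled HIPK2 shRNA and 774.0 in the control, a ratio of 0.892.

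Gamma subunits carry the lipid anchor that holds the dimer at the membrane. Of 12 genes, 5 were expressed, and GNG11 was the single gene past 2-fold. GNG11 encodes a gamma subunit with a farnesyl anchor (chromosome 7, 93921699 to 93928610, plus strand). It had 169 counts in the library labelled HIPK2 shRNA and 483 in the control, 6.25 and 17.6 CPM, which is 2.82-fold lower (2.36 to 3.38). Its deposited TPM was 3.05 in the library labelled HIPK2 shRNA and 8.04 in the control, 2.64-fold lower. GNGT1, its neighbour at 10.4 kb, had 7 counts in the library labelled HIPK2 shRNA and 2 in the control.

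GNG5 made up most of the gamma subunit TPM, with 88.9% in the library labelled HIPK2 shRNA and 86.5% in the control. It had 4428 counts in the library labelled HIPK2 shRNA and 4439 in the control, a ratio of 1.01 (0.970 to 1.05), and its deposited TPM was 299 and 261. GNG12 had 971 counts in the library labelled HIPK2 shRNA and 969 in the control. GNG4, known from brain, had 198 counts in the library labelled HIPK2 shRNA and 114 in the control, a ratio of 1.76 (1.39 to 2.24). GNG10 had 402 counts in the library labelled HIPK2 shRNA and 519 in the control, a ratio of 0.785 (0.688 to 0.896), but it shares exons with the readthrough gene DNAJC25-GNG10, which had 109 and 176, so that reads can be counted for either.

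**Figure D4:**
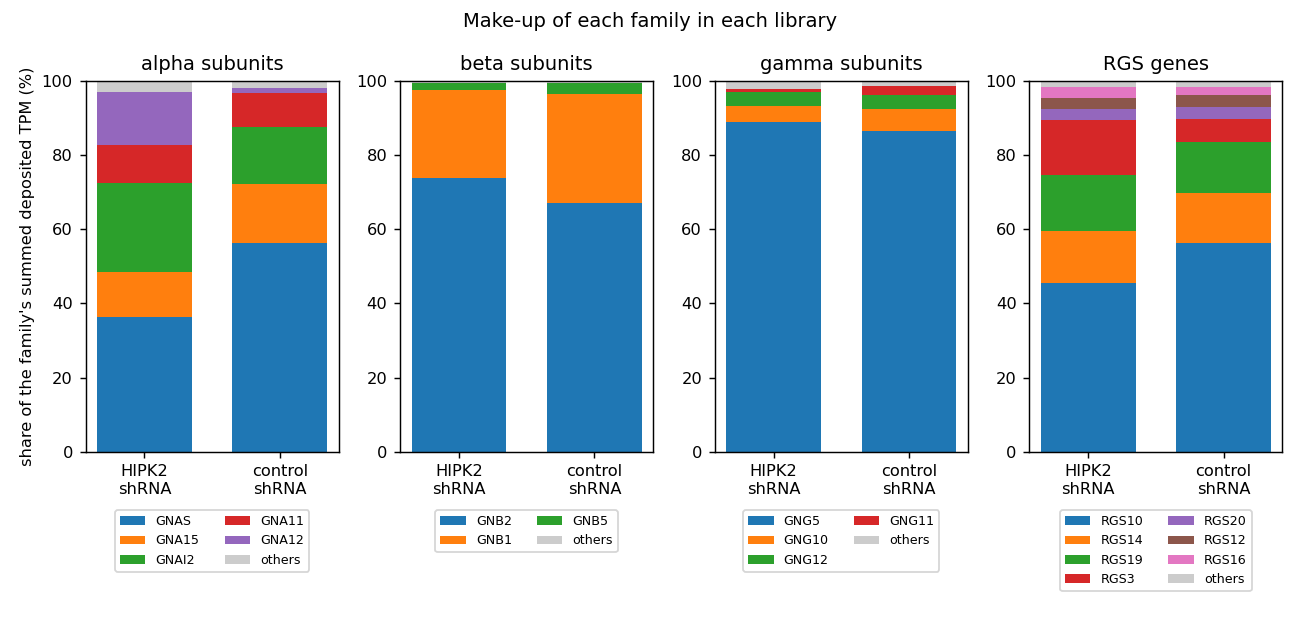
Share of each gene in the summed deposited TPM of its family, in percent, with the library labelled HIPK2 shRNA as the left bar and the control shRNA library as the right bar of each panel, and genes under 2% in both pooled as others. GNA12 takes 14.3% against 1.55% of the alpha subunits, while GNB2, GNG5 and RGS10 are the largest parts of their families in both.

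Of 21 RGS genes, 9 were expressed and none was past 2-fold in CPM. RGS3 had the largest ratio above 1. It belongs to the R4 class, RGS proteins that act on Gi and Gq subunits, and had 858 counts in the library labelled HIPK2 shRNA and 482 in the control. Its level was 31.7 CPM in the library labelled HIPK2 shRNA and 17.6 CPM in the control, a ratio of 1.80 (1.61 to 2.02). In deposited TPM RGS3 was at 21.3 in the library labelled HIPK2 shRNA and 9.49 in the control, a ratio of 2.25, which is past 2-fold in that unit. Over all genes at 1 TPM or more the share at least 2-fold higher in TPM was 3.01%, and 2.54% were lower by as much. The length implied for RGS3, which has 15 annotated coding transcripts, was 0.857 in the library labelled HIPK2 shRNA of that in the control.

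The other expressed R4 genes were low. RGS16 had 199 counts in the library labelled HIPK2 shRNA and 164 in the control, a ratio of 1.23 (0.995 to 1.52). RGS2, which acts mainly on Gq, had 33 counts in the library labelled HIPK2 shRNA and 40 in the control, a ratio of 0.836 (0.511 to 1.36). The remaining 7 R4 genes had at most 3 counts in a library. Those 7 are RGS1, RGS4, RGS5, RGS8, RGS13, RGS18 and RGS21, several of which are known from leukocytes or muscle.

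The RZ class, known to act on the GNAZ product, was expressed in all 3 of its genes. RGS20 had 123 counts in the library labelled HIPK2 shRNA and 172 in the control, a ratio of 0.725 (0.570 to 0.919). RGS17 had 23 counts in the library labelled HIPK2 shRNA and 41 in the control, a ratio of 0.569 (0.326 to 0.970). RGS19 had 587 counts in the library labelled HIPK2 shRNA and 625 in the control, a ratio of 0.952 (0.849 to 1.07), and its log2 ratio of -0.07 became 0.04 in TPM and 0.00057 with upper-quartile scaling.

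RGS10 was the most abundant RGS gene by TPM, at 64.7 in the library labelled HIPK2 shRNA and 86.6 in the control. It belongs to the R12 class, whose members act on Gi subunits. It had 934 counts in the library labelled HIPK2 shRNA and 1358 in the control, 34.5 and 49.5 CPM, which is 1.43-fold lower (1.32 to 1.56). RGS12 had 416 counts in the library labelled HIPK2 shRNA and 522 in the control, a ratio of 0.808 (0.709 to 0.921). RGS14, a scaffold that also binds inactive Gi, had 647 counts in the library labelled HIPK2 shRNA and 755 in the control, a ratio of 0.869 (0.781 to 0.966). The log2 ratios of all 3 R12 genes were below 0 in counts and in TPM.

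By share of the summed TPM of RGS genes, RGS10 took 45.4% in the library labelled HIPK2 shRNA and 56.3% in the control, and RGS3 took 14.98% and 6.16%. The summed RGS TPM was 142 in the library labelled HIPK2 shRNA and 154 in the control. RGS9BP, the partner of RGS9, had 27 counts in the library labelled HIPK2 shRNA and 37 in the control, a ratio of 0.740 (0.433 to 1.25), and its exons overlap ANKRD27 on the opposite strand. Its log2 ratio of -0.23 became 0.15 when counts of both genes were summed. RGS7BP and RGS22 had 0 counts in both libraries.

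Many of these genes lie beside a relative in the genome, and in several such pairs 1 gene had counts and the other had none. Within 200 kb of each other lay 11 pairs of neighbouring genes of the group. GNAI2, with 6801 counts in the library labelled HIPK2 shRNA and 4178 in the control, lies 29.8 kb from GNAT1 with 0, and GNAQ, with 358 in the library labelled HIPK2 shRNA and 391 in the control, lies 67.8 kb from GNA14 with 0. RGS16, with its 199 counts in the library labelled HIPK2 shRNA and 164 in the control, lies 37.4 kb from RGS8 with 0. On chromosome 1, RGS18, RGS21, RGS1 and RGS13 had 0 counts, and RGS2, 149 kb beyond RGS13, had 33 in the library labelled HIPK2 shRNA and 40 in the control. GNA11 and GNA15 were the single such pair with both genes expressed.

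Of 25 genes below 1 CPM in both libraries, 9 had any count, with at most 16. Besides the genes named above, GNG2 had 5 counts in the library labelled HIPK2 shRNA and 9 in the control, and GNG3 had 8 and 2. GNG3 shares exons with BSCL2 on the opposite strand, which had 3356 counts in the library labelled HIPK2 shRNA and 2441 in the control. GNG7, GNG8, GNG13 and GNGT2 had 0 counts in both libraries. A count of 0 allows up to 0.111 CPM in the library labelled HIPK2 shRNA and 0.109 CPM in the control.

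The other genes of G protein signalling were followed as 8 lists of receptors, effectors and regulators. Leaving out RGS7BP and RGS9BP, they hold 110 genes, 81 of them expressed, with a median log2 ratio of -0.02. Of the 81, 1 was higher past 2-fold in the library labelled HIPK2 shRNA and 4 were lower, beside 3.26% and 2.87% of all expressed genes. The adenylyl cyclases, which make cyclic AMP, held the higher one. ADCY1 had 863 counts in the library labelled HIPK2 shRNA and 204 in the control, a CPM ratio of 4.29 (3.68 to 5.02). In deposited TPM ADCY1 was at 6.58 in the library labelled HIPK2 shRNA and 2.52 in the control, a ratio of 2.61, with an implied transcript length 1.76 times as long in the library labelled HIPK2 shRNA. ADCY9 had a log2 ratio of 0.82, and the median of the 5 expressed cyclases was 0.03. That median was 0.44 in TPM, beside 0.071 for all expressed genes, and 0.43 with a filter at 10 CPM.

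The lower genes were a receptor kinase, an effector and receptors. GRK5, which phosphorylates active receptors, had 70 counts in the library labelled HIPK2 shRNA and 244 in the control, a CPM ratio of 0.291 (0.220 to 0.381). PLCB1, a phospholipase C beta, had 40 counts in the library labelled HIPK2 shRNA and 133 in the control, a ratio of 0.305 (0.209 to 0.437). GPER1, a receptor for oestrogen, had 150 counts in the library labelled HIPK2 shRNA and 366 in the control, a ratio of 0.415 (0.341 to 0.504), and its log2 ratio of -1.13 was -0.89 in TPM.

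Of 23 expressed receptors, 17 had a log2 ratio below 0, with a median of -0.13, beside 0.0002 for all expressed genes. The receptor median moved with the settings, to -0.15 with a filter at 10 CPM and -0.04 with no filter. Whether the receptors differ from other genes was not tested. The 9 genes that act after G12/13 are exchange factors, small GTPases and protein kinases. All were expressed and none was past 2-fold, with a median of -0.01. In deposited TPM, over those at 1 TPM or more, the median was 0.20, beside 0.071 for all genes at that level. Among them AKAP13, a RhoGEF, had the highest log2 ratio, 0.76 in CPM and 0.99 in TPM, and ROCK2 one of 0.65 in CPM. The 12 expressed Gq effector genes had a median of 0.09, the 12 cyclic AMP readers and phosphodiesterases one of -0.06 and the 7 receptor kinases and arrestins one of -0.04. In the cyclic AMP list PDE8A at 0.63 and PRKAR1A at 0.57 lay farthest from 0. The 9 expressed chaperones and modulators had a median of 0.06, and RIC8A, a chaperone of alpha subunits, had 4399 counts in the library labelled HIPK2 shRNA and 2468 in the control, a ratio of 1.81 (1.72 to 1.90). GPSM3 in that list had a log2 ratio of -0.72. The 5 expressed other genes with an RGS-like domain had a median of -0.08, with SNX25 at -0.41 and SNX13 at 0.15. Several list medians moved with a filter at 10 CPM, which keeps fewer genes. The cyclic AMP list was then at 0.29, the chaperones and modulators at 0.33, and the receptor kinases and arrestins at 0.21. The Gq effectors were at 0.09, the G12/13 list at 0.002 and the other RGS-like genes at -0.11, beside -0.05 for all expressed genes.

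**Figure D5:**
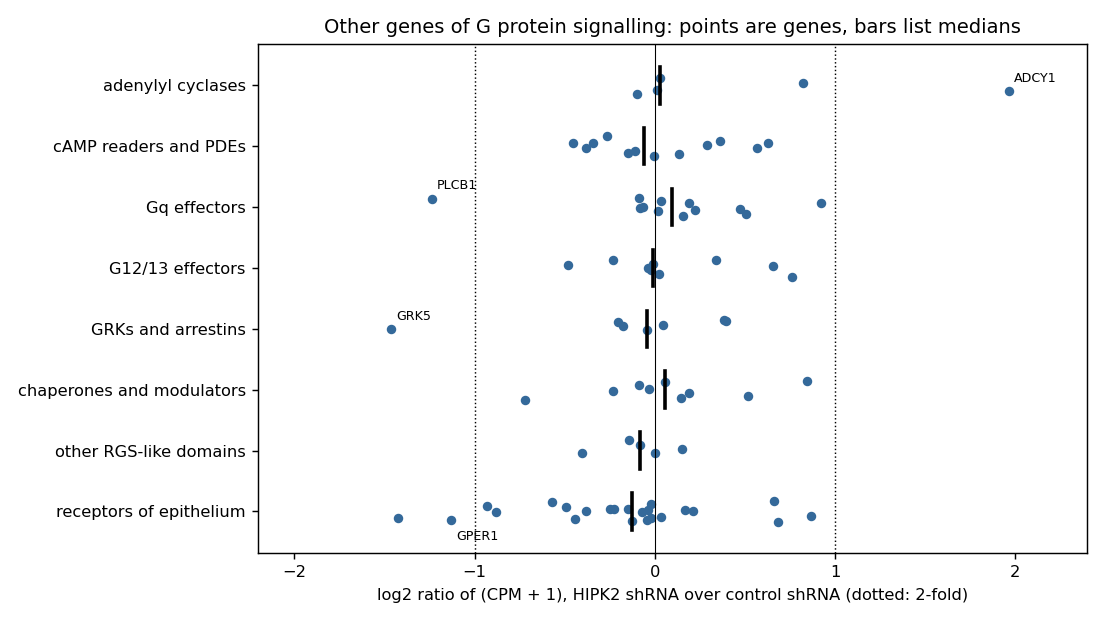
Log2 ratio of the expressed genes in 8 lists of receptors, effectors and regulators, library labelled HIPK2 shRNA over control, with a bar at each list's median and dotted lines at 2-fold. RGS9BP is drawn among the chaperones and modulators. ADCY1 is past the right line, PLCB1, GRK5 and GPER1 are labelled past the left, and the medians lie between -0.13 and 0.09.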

How the data were processed

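The submitters' processing notes name FastQC for read quality and TopHat2 2.1.1 with the GRCh38 (hg38) genome for alignment. How reads were counted, with which annotation and strand setting, is not stated. Per the file headers, the authors deposited a whole-number count, a TPM and an FPKM per gene. Dividing the count by the deposited FPKM and the library total gave the implied transcript length. Counts were scaled to CPM by the TMM method of edgeR 4.0.16 (R 4.3.3, with factors of 1.02 in the library labelled HIPK2 shRNA and 0.977 in the control), fitted on all 20263 genes. With 1 library per group no test was run. Exact (Clopper-Pearson) 95% intervals of CPM ratios came from scipy 1.17.1, conditional on the sum of both counts. They, and the limit of 3 counts set for a count of 0, cover counting error only, since the labels name no molecular identifiers and reads without them are not independent molecules. Exon overlaps and transcript lengths come from GENCODE 29, sequences from RefSeq.

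The genes described and the lists of other genes were chosen with earlier results of these data known. Every expressed gene of the group is named, and from each list the genes past 2-fold or otherwise up to 2 with the largest absolute log2 ratio, except for a gene that counts toward its list but is not reported here. Alternatives tried were total-count, DESeq2 1.42.0 size-factor and upper-quartile scaling, pseudocounts of 0.1 and 5 CPM, no filter and a filter at 10 CPM, the deposited TPM, limits of 1.5-fold and 4-fold, and leaving out genes that share exons.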

Additional observations from a re-analysis of the deposited data

How the results depend on the processing

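No paired analysis was possible because there is 1 library per group, and for the same reason none could be left out. The median log2 ratio of the expressed genes of the group, -0.07, stayed near 0 under each setting, at -0.079 with DESeq2 size factors, -0.054 with a pseudocount of 5 CPM, -0.0048 with total counts, 0.00057 with upper-quartile factors, 0.0 with no filter and 0.076 in TPM. The median of all expressed genes moved as well. It was -0.011 with DESeq2 size factors, 0.061 with total counts, 0.065 with upper-quartile factors and 0.071 in TPM. The count of 3 higher genes was between 2 and 4 except at 1.5-fold, where it was 6. That of 1 lower gene was 2 at 1.5-fold and 0 at 4-fold, and 1 otherwise. With a pseudocount of 5 CPM GNAZ had a log2 ratio of 0.86, under 2-fold. In TPM RGS3 was past 2-fold, at 1.09. Of the listed genes outside the group, 5 past 2-fold became 17 at 1.5-fold, 0 at 4-fold, 11 with a pseudocount of 0.1 CPM, 3 when 10 CPM was required and 2 with a pseudocount of 5 CPM. The share of GNA12 in the alpha subunits of the library labelled HIPK2 shRNA, 14.3%, was 18.1% with counts per longest annotated transcript. Summed with the genes that share their exons, 3 of 6 genes took the opposite sign to their own log2 ratio, GNAI3 at 0.26, RGS9BP at 0.15 and GNAL at -0.23. This sum and the share by longest transcript were chosen after seeing the data. Apart from settings that change the limit or the genes kept, the cause was not tested. At this depth 1 count is worth 0.0370 CPM in the library labelled HIPK2 shRNA and 0.0365 CPM in the control, which limits the precision of low genes.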
